A study of Mus musculus with 8 samples.

Results

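The ephrin, semaphorin, Slit and netrin genes encode the ligands and receptors best known for steering growing axons. They were picked from the gene table by symbol alone: ephrins (Efna, Efnb) and Eph receptors (Epha, Ephb), semaphorins (Sema) and plexins (Plxn), Slits and Robos, and netrins (Ntn) and Unc5 receptors. The rule found 67 entries with 66 symbols among the 22520 genes of the table, because the symbol Efna5 stood on 2 entries. By role, 36 entries were ligands and 31 were receptors. A level of at least 1 FPKM in at least 4 libraries was needed for testing. FPKM stands for the fragments of a gene scaled to transcript length and to all mapped fragments. This left 42 of the 67 entries, and the other 25 are given by their values.

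Many of the same molecules act on blood vessels. Eph receptors are receptor tyrosine kinases that bind ephrins held on the membrane of a neighbouring cell, ephrin-A through a lipid anchor and ephrin-B as a transmembrane protein, and signals can pass into both cells. Plexins are the receptors of semaphorins, and most secreted class 3 semaphorins also need a neuropilin. Robo receptors bind Slits, and netrins bind Unc5 receptors and DCC-type receptors. Ephrin-B2 and EphB4 mark arterial and venous endothelium, and plexin-D1, Robo4 and Unc5b are known from endothelial cells.

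RNA sequencing was performed on microvascular endothelial cells from lung, heart and liver of C57BL/6 mice at postnatal day 14, in 4 LRP1 KO and 4 wild-type (WT) libraries. LRP1, a relative of the low-density lipoprotein receptor, is an endocytic receptor, and the comparison asks which genes differ in endothelial cells that lack it. According to the study's methods, cells were pulled down with beads carrying an antibody against PECAM-1. There, LRP1 KO mice are LRP1 f/f; Cdh5-CreER+/- and WT littermates are LRP1 f/f; Cdh5-CreER-/-, so that both groups carry floxed Lrp1 and the KO group alone carries the tamoxifen-inducible Cre, driven by the promoter of the endothelial gene Cdh5. The labels call every library a mix of cells of the 3 organs, whereas the study describes liver cells apart from heart and lung cells, and which holds for these libraries could not be settled here. They do not say whether libraries of a group came from separate mice, so p-values below measure the spread between these libraries only.

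The targeted gene, Lrp1, had levels (numbered by library, 1 to 4) of 113, 140.4, 103 and 124 FPKM in WT and of 3.45, 5.20, 2.79 and 7.72 FPKM in LRP1 KO, which matched the labels. The labelled cell type was only in part borne out by its markers. The summed level of 18 endothelial markers was 191 to 204 FPKM in WT and 200.1 to 685 FPKM in LRP1 KO, while 12 fibroblast markers summed to 2502 to 3691 FPKM in WT and 2139 to 3349 FPKM in LRP1 KO. Of the 12 fibroblast markers, Dpt (log2 fold change -2.01, limma adjusted p = 0.0330) and Pdgfra (-0.96, limma adjusted p = 0.0367) were lower and Postn (0.98, limma adjusted p = 0.00663) was higher past the test. The endothelial sums of LRP1 KO libraries 1 to 3 were 685, 434 and 506 FPKM, and only library 4, at 200.1 FPKM, lay within the WT range. All 17 tested endothelial markers had a higher estimate in LRP1 KO, and 2 passed the test. Of 13 tested macrophage markers, 11 were higher past the test, among them Ms4a7 and Mrc1, which met the limit for testing only through the LRP1 KO group. The macrophage sums were 94.5 to 122 FPKM in WT and 266 to 639 FPKM in LRP1 KO. Mural cell markers summed to 670.5 to 836 FPKM in WT and 1040 to 1627 FPKM in LRP1 KO, and 4 of 8 tested ones were higher past the test. Epithelial and mesothelial markers, mostly the mesothelial genes Msln and Upk3b, summed to 1600 to 1911 FPKM in WT and 1319 to 1498 FPKM in LRP1 KO, and 2 of 5 tested ones were lower past the test. Lymphocyte markers summed to at most 0.105 FPKM in any library. In such bulk libraries, fewer cells of a type and less RNA per cell cannot be told apart, and the part of these shifts in the results below was not tested.

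Of the 42 tested guidance genes, 13 passed the test (limma, adjusted p under 0.05), 2 of them higher and 11 lower in LRP1 KO. Over all 11389 tested genes 13.6% passed, 6.27% higher and 7.31% lower. At an unadjusted p under 0.05 there were 23 guidance genes, against 33.7% of all tested genes. None of the 42 differed by 2-fold on the log2(FPKM + 1) scale while passing, a size reached by 1.62% of all tested genes. The median log2 fold change of the guidance genes was -0.07 and that of all tested genes -0.01, with a lower estimate in 54.8% of the guidance genes and 51.9% of all. The groups did not overlap in 14 tested guidance genes, 4 higher and 10 lower, against 19.6% of all tested genes (8.84% higher and 10.7% lower). Below the limit for testing, 5 more did not overlap, Sema4d and Robo2 higher and Efnb3, Ephb1 and Unc5d lower, where 5.38% of 6637 such genes did so upwards and 4.73% downwards. Among ligands, 8 of 25 tested passed, 7 of them lower, and among receptors 5 of 17, 4 of them lower.

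**Figure D1:**
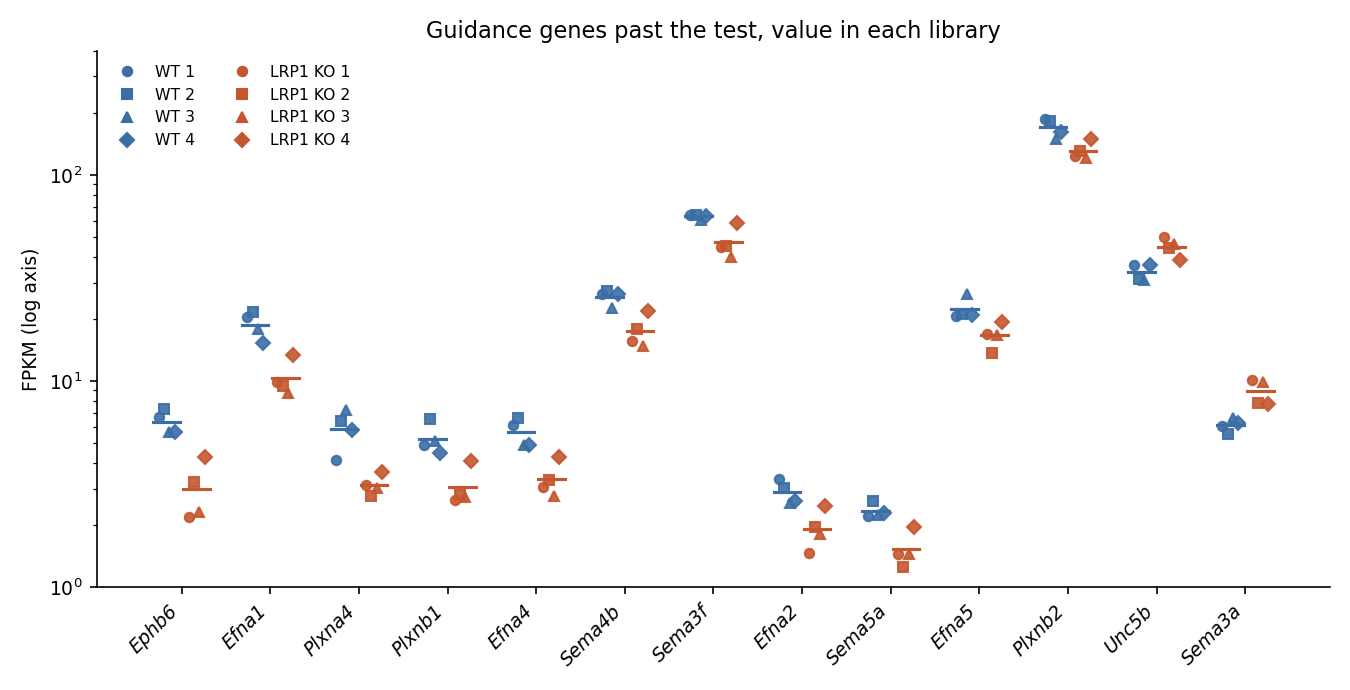
Level (FPKM, log axis) of the 13 guidance genes past the test in each library, WT in blue and LRP1 KO in orange, with a marker shape for each library number and a bar at the group mean. In all 13, LRP1 KO library 4 (orange diamond) was the LRP1 KO library nearest to WT.

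The library that stood apart among endothelial markers also stood apart here. In 13 of the 13 guidance genes past the test, LRP1 KO library 4 was the LRP1 KO library closest to the WT mean, as it was in 1163 of the 1547 genes that passed among all tested genes (75.2%). Without that library 22 guidance genes passed, 7 higher and 15 lower, while 26.5% of all tested genes passed. All 13 were among the 22. Without any other library the counts went down, to 7, 2, 9 and 8 guidance genes when WT library 1, 2, 3 or 4 was left out (7.46%, 4.5%, 8.07% and 8.85% of all tested genes). They were 3, 3 and 3 without LRP1 KO library 1, 2 or 3 (4.97%, 4.58% and 4.79% of all tested genes). Efna1 and Ephb6 passed in all 8 of these fits, Plxna4 in 6, Sema3a in 5, Efna4 and Plxnb1 in 4, Sema4b and Unc5b in 3, and Plxnb2 in 2. Efna2, Efna5, Sema3f and Sema5a passed in 1, the fit without LRP1 KO library 4.

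**Figure D2:**
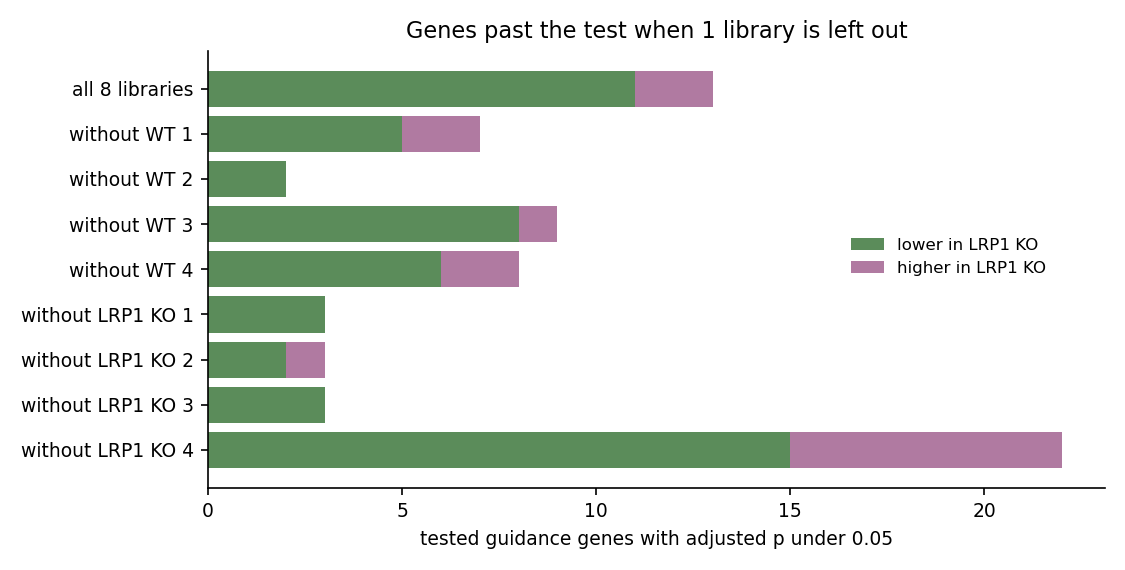
Number of tested guidance genes with a limma adjusted p under 0.05, lower (green) and higher (purple) in LRP1 KO, in the fit of all 8 libraries and with each library left out in turn. The count was 13 with all libraries, 22 without LRP1 KO library 4 and 2 to 9 without any other library.

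Among the ephrin-A ligands 4 of 5 tested entries fell, where 7.31% of all tested genes did. The fifth, the second Efna5 entry, also had a lower estimate. Efna3, the entry below the limit for testing, had a higher mean in LRP1 KO (0.807 FPKM) than in WT (0.517 FPKM). Of the 4 calls, those of Efna2 and Efna5 were lost with no limit on low values (limma adjusted p = 0.0773 and 0.0770), that of Efna5 also without the variance trend, and Efna1 alone remained when WT library 2 or LRP1 KO library 1, 2 or 3 was left out. The median log2 fold change of the 5 entries was -0.51. The summed level of the 6 ephrin-A entries was 54.7 to 71.8 FPKM in WT and 38.7 to 54.2 FPKM in LRP1 KO, or 64.9 ± 7.53 FPKM (SD, n = 4) and 43.1 ± 7.39 FPKM (SD, n = 4), and the groups did not overlap. Past the test, 2 of 5 tested epithelial and mesothelial markers and 2 of 12 fibroblast markers, Dpt and Pdgfra, were lower. Another fibroblast marker, Postn, was higher. In LRP1 KO library 4 Pdgfra was 37.7 FPKM, within its WT range of 37.4 to 50.9 FPKM. The part of these markers in the ephrin-A result was not tested. Dpt was 23.4 to 43.9 FPKM in WT and 2.26, 9.30, 6.24 and 23.4 FPKM in LRP1 KO. LRP1 KO library 4 was nearest to WT there too, as in 75.2% of all genes past the test.

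Efna1 encodes ephrin-A1, a ligand of EphA2 that is induced in endothelium by inflammatory cytokines. In library order its level was 20.5, 21.5, 17.8 and 15.2 FPKM in WT, and 9.91, 9.46, 8.71 and 13.3 FPKM in LRP1 KO. The highest LRP1 KO value was under the lowest WT value, and the LRP1 KO mean was 55.2% of the WT mean, at 10.4 ± 2.04 against 18.8 ± 2.83 FPKM (SD, n = 4 each). Efna1 fell by 0.80 on the log2(FPKM + 1) scale, with an SE of 0.14 (limma adjusted p = 0.00959).

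Efna4, another ephrin-A ligand, was 6.09, 6.62, 4.90 and 4.88 FPKM in WT and 3.06, 3.29, 2.77 and 4.28 FPKM in LRP1 KO, again without overlap. With a pseudocount of 1 it fell by 0.61 (log2, SE 0.13, limma adjusted p = 0.0187), to 59.5% of the WT mean. Efna1, Efna3 and Efna4 follow each other on the minus strand of chromosome 3 (GRCm38: Efna1 from 89271733 to 89281142, Efna3 from 89313899 to 89322965, Efna4 from 89333390 to 89338028), with gaps of 32.8 and 10.4 kb between them. Efna3, the gene in the middle, stood below the limit for testing, at 0.706, 0.336, 0.568 and 0.459 FPKM in WT and 0.696, 0.696, 0.921 and 0.917 FPKM in LRP1 KO, groups that overlapped (exact two-sided permutation p = 0.0857).

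The start regions of Efna1 and Efna4, which lie near each other and fell together, and of Unc5b, which rose, are shown to set neighbouring ligands that fell beside a receptor that rose. Each runs from 250 bases before to 50 bases after a transcription start (RefSeq, GRCm38.p6, minus strand, shown 5′ to 3′ along the gene), and capitals mark the GC box, GGGCGG or its reverse complement CCGCCC. Efna1 has 2 starts, in chr3:89280902-89281201 and chr3:89279596-89279895. Efna4 has its start in chr3:89337979-89338278 and Unc5b in chr10:60831532-60831831.
Efna1 start 1: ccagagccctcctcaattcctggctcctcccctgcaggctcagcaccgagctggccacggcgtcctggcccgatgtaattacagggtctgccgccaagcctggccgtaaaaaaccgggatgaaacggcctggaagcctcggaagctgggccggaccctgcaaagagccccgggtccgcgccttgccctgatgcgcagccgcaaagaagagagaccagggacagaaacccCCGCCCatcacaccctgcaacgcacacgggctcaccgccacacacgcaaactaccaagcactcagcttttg
Efna1 start 2: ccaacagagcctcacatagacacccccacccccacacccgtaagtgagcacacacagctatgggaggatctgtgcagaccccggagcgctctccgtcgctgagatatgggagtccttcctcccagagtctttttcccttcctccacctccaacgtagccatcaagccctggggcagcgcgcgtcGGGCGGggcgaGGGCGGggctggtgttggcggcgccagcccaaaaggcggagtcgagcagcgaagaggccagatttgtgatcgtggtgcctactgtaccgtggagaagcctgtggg
Efna4: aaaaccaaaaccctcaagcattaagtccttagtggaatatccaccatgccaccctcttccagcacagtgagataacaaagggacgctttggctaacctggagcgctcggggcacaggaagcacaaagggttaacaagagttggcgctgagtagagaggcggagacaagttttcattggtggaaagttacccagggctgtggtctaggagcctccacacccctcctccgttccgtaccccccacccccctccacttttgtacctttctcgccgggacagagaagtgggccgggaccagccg
Unc5b: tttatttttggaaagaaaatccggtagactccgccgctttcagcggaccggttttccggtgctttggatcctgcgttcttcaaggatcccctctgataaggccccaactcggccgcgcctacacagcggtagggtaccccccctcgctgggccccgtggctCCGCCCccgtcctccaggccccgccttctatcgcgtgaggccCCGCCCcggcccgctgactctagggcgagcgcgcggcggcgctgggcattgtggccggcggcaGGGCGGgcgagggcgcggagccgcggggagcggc
The Efna1 regions held 1 and 2 GC boxes, the Efna4 region 0 and the Unc5b region 3, with a share of G and C of 63.7%, 63.3%, 55.7% and 69.7%. RefSeq starts were matched for 57 guidance genes, with 73 starts. A GC box on either strand was found in 51 of these 73 starts (69.9%), against 35.7% of 32851 starts of all genes. Of the 11 matched guidance genes past the test, 9 held a GC box at 1 or more starts, as did 42 of all 57 matched guidance genes, Efna4 not being among them. A forkhead motif (TGTTTAC, either strand) was in 0 of the 73 starts and 3.65% of all starts, and an E-box (CACGTG) in 6.85% and 7.15%. Efna1, which fell, and Unc5b, which rose, both held the box. Whether the box bears on the direction of a change was not tested.

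Efna5, an ephrin-A ligand known from the mapping of retinal axons, stood at 20.7, 21.1, 26.5 and 20.9 FPKM in WT and 16.9, 13.7, 16.7 and 19.3 FPKM in LRP1 KO. It fell by 0.40 (log2, SE 0.11, limma adjusted p = 0.0439), with no overlap. The second entry of the same symbol, ENSMUSG00000090425, is not in the annotation used for positions, and what it measures is uncertain. Its level ran from 10.6 to 20.5 FPKM in WT and from 7.76 to 13.9 FPKM in LRP1 KO, and it did not pass the test (log2 fold change -0.51, limma adjusted p = 0.142). Efna2 was 3.36, 3.03, 2.55 and 2.62 FPKM in WT and 1.47, 1.96, 1.80 and 2.46 FPKM in LRP1 KO. The groups lay side by side without overlap, and Efna2 fell by 0.42 (SE 0.12, limma adjusted p = 0.0456).

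Among ephrin-B ligands none passed. Efnb2 encodes ephrin-B2, the arterial marker and partner of EphB4, and its level was 23.3, 17.6, 22.5 and 24.3 FPKM in WT and 28.7, 25.3, 25.9 and 26.2 FPKM in LRP1 KO. The groups did not overlap, yet the estimate of 0.27 (SE 0.10) had a limma adjusted p of 0.0880. Efnb1 was nearly level in all libraries, at 20, 19.9, 20.8 and 20.7 FPKM in WT and 20.1, 20.96, 21.6 and 21.2 FPKM in LRP1 KO (log2 fold change 0.04, SE 0.05, limma adjusted p = 0.566). Efnb3 stayed below the limit for testing, at 0.124 to 0.283 FPKM in WT and 0.0708 to 0.124 FPKM in LRP1 KO.

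The Eph receptors showed 1 change among 8 tested genes, that of Ephb6, where 13.6% of all tested genes passed the test. EphB6 is an Eph receptor whose kinase domain lacks catalytic activity. Ephb6 was 6.67, 7.32, 5.66 and 5.68 FPKM in WT and 2.18, 3.23, 2.32 and 4.28 FPKM in LRP1 KO. The groups were well apart, with the LRP1 KO mean at 47.4% of WT, 3.002 ± 0.972 against 6.33 ± 0.809 FPKM (SD, n = 4 each). Ephb6 fell by 0.90 (log2, SE 0.16, limma adjusted p = 0.0109), the largest estimate of either sign among the 42 tested guidance genes. Ephb3 had a similar order of libraries but a smaller estimate, at 10.6 to 13.1 FPKM in WT and 6.30, 8.58, 7.33 and 11.8 FPKM in LRP1 KO (log2 fold change -0.51, SE 0.16, limma adjusted p = 0.0603). It passed without LRP1 KO library 4.

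Ephb4, the venous receptor of ephrin-B2, was 16.99, 20.2, 17.1 and 16.0 FPKM in WT and 17.5, 17.6, 16.1 and 16.96 FPKM in LRP1 KO. The groups overlapped entirely, with a log2 fold change of -0.04 (SE 0.08, limma adjusted p = 0.764). Ephb2 was 11.1 to 13.1 FPKM in WT and 9.92 to 15.8 FPKM in LRP1 KO (log2 fold change 0.01). Ephb1, below the limit for testing, was 0.394, 1.15, 0.627 and 0.515 FPKM in WT and 0.183, 0.136, 0.119 and 0.182 FPKM in LRP1 KO. Its groups did not overlap, and in a fit without a limit on low values it missed the threshold (log2 fold change -0.51, SE 0.12, limma adjusted p = 0.0504). Ephb4 and Ephb1 overlap protein-coding genes on the opposite strand (Zan and 9630041A04Rik), and no source used here states whether strand was used in counting.

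The EphA receptors had 4 tested members and none passed. Epha2, the main receptor of ephrin-A1 in endothelial cells, was the most abundant of them, at 34.4, 25.4, 27.3 and 35.1 FPKM in WT and 44.8, 36.8, 39.6 and 32.3 FPKM in LRP1 KO. Only LRP1 KO library 4 lay within the WT range, and the log2 fold change was 0.32 (SE 0.13, limma adjusted p = 0.111). Without that library it was 0.40 (limma adjusted p = 0.0448). Epha4 was 1.35 to 1.53 FPKM in WT and 1.74 to 2.29 FPKM in LRP1 KO, without overlap (log2 fold change 0.27, limma adjusted p = 0.0611). Epha3 (1.75 to 4.04 and 1.01 to 2.51 FPKM) and Epha1 (1.66 to 2.92 and 1.43 to 2.63 FPKM) overlapped between groups, and Epha1 lies across the protein-coding gene Zyx on the opposite strand. Epha6 and Epha10 were listed at 0 in all 8 libraries, and Epha5, Epha7 and Epha8 did not exceed 1.09 FPKM.

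**Figure D3:**
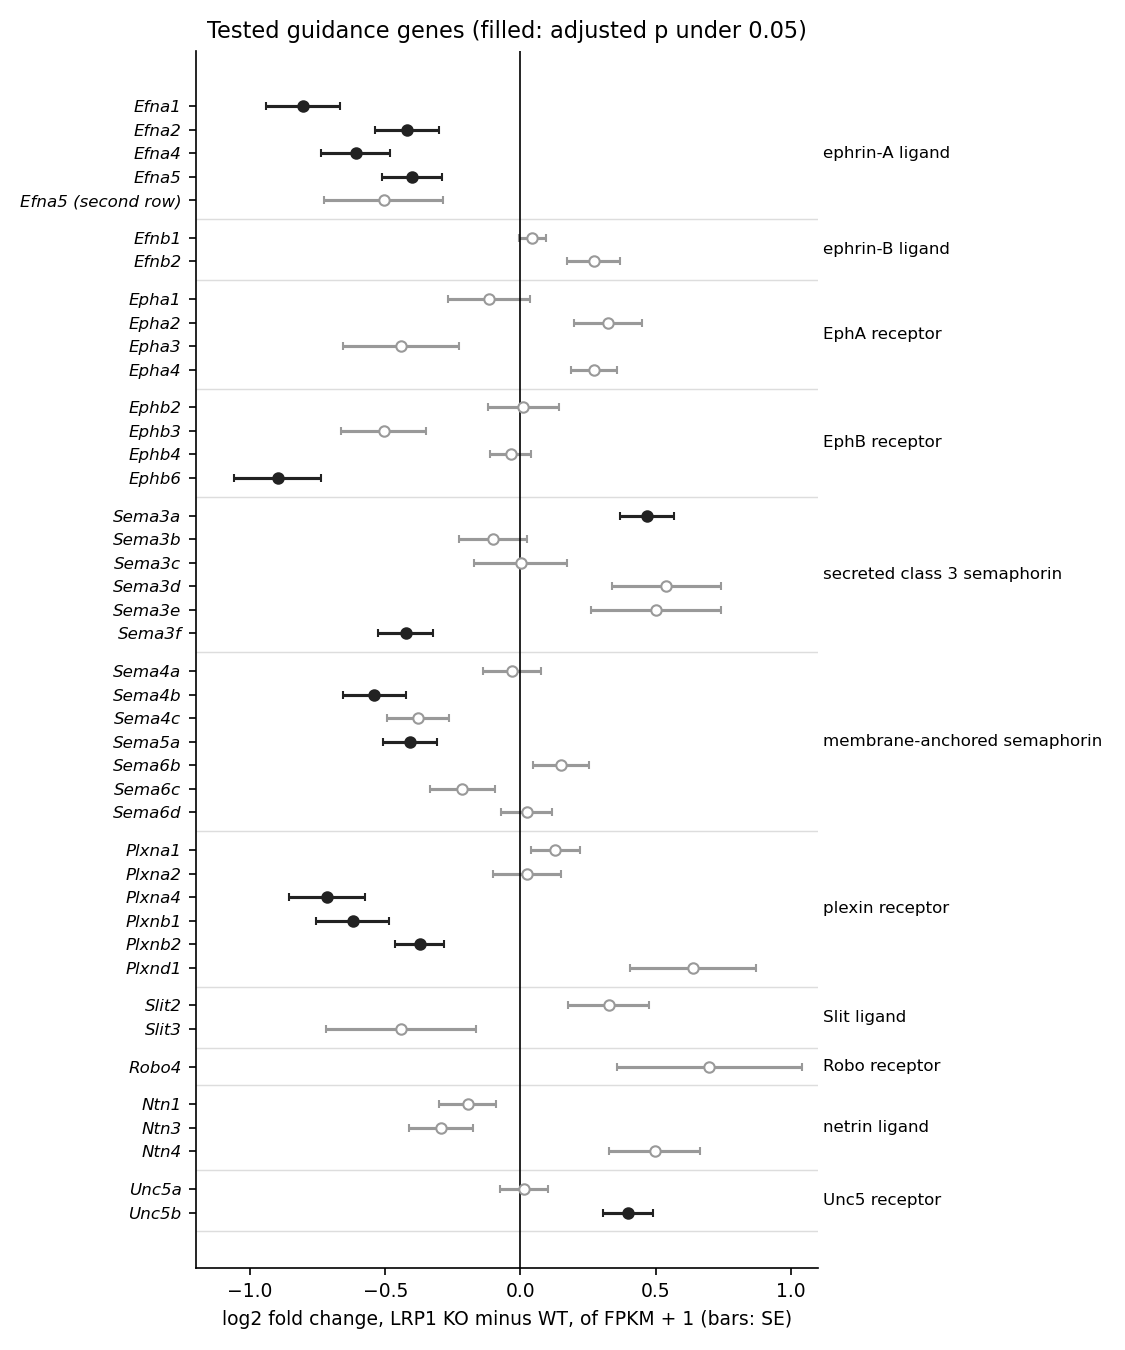
Log2 fold change of FPKM + 1, LRP1 KO minus WT, of the 42 tested guidance genes by role. Bars are SE from limma, filled points have an adjusted p under 0.05. All 5 tested ephrin-A entries lie left of 0, from -0.80 to -0.40, whereas the other larger roles hold genes on both sides.

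Secreted class 3 semaphorins moved in both directions. Sema3a rose and Sema3f fell, while the sum over the 7 genes was 109.2 ± 7.196 FPKM (SD, n = 4) in WT and 108.8 ± 8.43 FPKM (SD, n = 4) in LRP1 KO. Sema3a encodes a repellent that binds neuropilin-1. It stood at 6.02, 5.55, 6.60 and 6.26 FPKM in WT and 10.1, 7.81, 9.89 and 7.75 FPKM in LRP1 KO, without overlap. The log2 fold change was 0.47 (SE 0.10, limma adjusted p = 0.0195). Sema3f, whose product binds neuropilin-2, was the most abundant semaphorin. Its level was 63.6, 63.9, 60.3 and 63.4 FPKM in WT and 44.6, 45.1, 39.9 and 58.2 FPKM in LRP1 KO. The WT libraries were close together and LRP1 KO library 4 sat just under them. Sema3f fell by 0.42 (SE 0.10, limma adjusted p = 0.0279), and by 0.53 without LRP1 KO library 4. It missed the threshold when any of the other 7 libraries was left out and, at a limma adjusted p of 0.0534, with no limit on low values.

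Sema3e, the ligand that binds plexin-D1 without a neuropilin, was 19.5, 15.1, 21.6 and 30.7 FPKM in WT and 40.3, 25.9, 37.6 and 21.2 FPKM in LRP1 KO. The groups overlapped, with a log2 fold change of 0.50 (SE 0.24, limma adjusted p = 0.175). Sema3d was 4.98 to 8.60 FPKM in WT and 7.61 to 14.0 FPKM in LRP1 KO (log2 fold change 0.54, limma adjusted p = 0.0983). Sema3c, a class 3 semaphorin needed for the cardiac outflow tract, was 5.87, 8.11, 10.5 and 6.93 FPKM in WT and 7.45, 7.25, 10.2 and 6.32 FPKM in LRP1 KO, with a log2 fold change of 0.00 (SE 0.17). Sema3g, an arterial endothelial semaphorin, stayed below the limit for testing at 0.236, 0.0344, 0.0539 and 0.0723 FPKM in WT and 0.440, 0.231, 0.332 and 0.118 FPKM in LRP1 KO. WT library 1 lay among the LRP1 KO values (exact two-sided permutation p = 0.0857).

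Of the 7 tested membrane-anchored semaphorins, Sema4b and Sema5a fell and none rose, where 7.31% of all tested genes fell and 6.27% rose. Sema4b was 26.3, 27.2, 22.6 and 26.5 FPKM in WT and 15.6, 17.8, 14.7 and 21.8 FPKM in LRP1 KO, so that the highest LRP1 KO value came just short of the lowest WT value. It fell by 0.54 (SE 0.12, limma adjusted p = 0.0202). Sema5a, a transmembrane semaphorin with thrombospondin repeats, was 2.22, 2.61, 2.22 and 2.30 FPKM in WT and 1.44, 1.25, 1.45 and 1.96 FPKM in LRP1 KO. It fell by 0.41 (SE 0.10, limma adjusted p = 0.0297), a call that was lost when any library but LRP1 KO library 4 was left out. Sema4c had values of 7.45 to 10.7 FPKM in WT and 6.06 to 8.10 FPKM in LRP1 KO that overlapped (limma adjusted p = 0.0559). Sema6d was the other abundant one, at 17.01 to 23.9 FPKM in WT and 19.4 to 20.8 FPKM in LRP1 KO, with a log2 fold change of 0.02.

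Semaphorins known from leukocytes differed among themselves. Sema4d, a semaphorin of T cells and other leukocytes that binds plexin-B1, was below the limit for testing, at 0.279, 0.181, 0.260 and 0.339 FPKM in WT and 0.957, 0.769, 1.06 and 0.871 FPKM in LRP1 KO. Every LRP1 KO library was at least 2 times every WT library. In the fit without a limit on low values Sema4d rose by 0.60 (log2, SE 0.06, limma adjusted p = 0.00424), where 6.45% of 18026 genes passed. Macrophage markers were higher in the same libraries, LRP1 KO library 4 included, and lymphocyte markers were near 0. By LRP1 KO library number the macrophage sums were 425, 639, 266 and 573 FPKM, the reverse of the order of Sema4d. The part of the macrophage markers in this value was not tested. Sema4a, made by dendritic cells and macrophages, was 4, 3.20, 3.29 and 3.69 FPKM in WT and 4.09, 2.71, 3.46 and 3.61 FPKM in LRP1 KO, a log2 fold change of -0.03 (SE 0.11, limma adjusted p = 0.870). Plxnc1, the receptor of semaphorin 7A on myeloid cells, was 0.316, 0.337, 0.273 and 0.251 FPKM in WT and 0.330, 0.442, 0.266 and 0.5001 FPKM in LRP1 KO, groups that overlapped.

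Sema7a and Sema6a were also below the limit for testing. Sema7a, a semaphorin with a lipid anchor, was 0.798, 0.879, 1.29 and 0.696 FPKM in WT and 5.03, 0.994, 2.83 and 0.410 FPKM in LRP1 KO. LRP1 KO libraries 1 and 3 were above every WT library, and LRP1 KO library 4 was under the lowest of them. Sema6a was 0.521, 0.683, 0.886 and 0.677 FPKM in WT and 0.964, 0.681, 1.28 and 0.668 FPKM in LRP1 KO. The remaining semaphorins were Sema3b, Sema6b and Sema6c, which were tested and did not pass, and Sema4f, Sema4g and Sema5b, which did not exceed 0.785 FPKM.

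Plexins fell in 3 of 6 tested genes, and none rose, where 7.31% of all tested genes fell and 6.27% rose. The sum over the 9 plexins was 211 ± 14.5 FPKM (SD, n = 4) in WT and 171 ± 11.1 FPKM (SD, n = 4) in LRP1 KO, most of it from Plxnb2. Plxnb2, a receptor of class 4 semaphorins and of angiogenin, was the most abundant guidance gene. Its level was 186, 183, 149 and 162 FPKM in WT and 124, 130.0, 120.2 and 149 FPKM in LRP1 KO. LRP1 KO library 4 and WT library 3 met at the same level, so the groups overlapped slightly (exact two-sided permutation p = 0.0571), while the fit across all genes gave a fall of 0.37 (SE 0.09, limma adjusted p = 0.0310), lost with no limit on low values (limma adjusted p = 0.0570).

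Plxna4, a receptor that works with neuropilins for class 3 semaphorins, was 4.11, 6.41, 7.204 and 5.75 FPKM in WT and 3.11, 2.75, 3.03 and 3.63 FPKM in LRP1 KO. It fell by 0.72 (SE 0.14, limma adjusted p = 0.0151), and the groups did not overlap. Plxnb1, the receptor of semaphorin 4D, was 4.87, 6.51, 5.13 and 4.46 FPKM in WT and 2.66, 2.79, 2.74 and 4.09 FPKM in LRP1 KO. LRP1 KO libraries 1 to 3 agreed closely and library 4 stood between them and WT. Plxnb1 fell by 0.62 (SE 0.13, limma adjusted p = 0.0208).

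Plxnd1, the endothelial receptor of semaphorin 3E, had the largest SE of the 6 tested plexins on the log2(FPKM + 1) scale. It was 3.74, 3.62, 3.47 and 3.55 FPKM in WT and 9.45, 6.32, 7.24 and 3.16 FPKM in LRP1 KO. The first 3 LRP1 KO libraries were far above the narrow WT range and library 4 was below it. With all libraries Plxnd1 did not pass (log2 fold change 0.64, SE 0.23, limma adjusted p = 0.0929), and without LRP1 KO library 4 it did (0.90, limma adjusted p = 0.00133). Plxna2 was 7.47, 6.75, 8.46 and 9.59 FPKM in WT and 10.1, 6.97, 8.27 and 7.60 FPKM in LRP1 KO (log2 fold change 0.02, SE 0.12). Plxna1 (14.1 to 19.0 and 16.8 to 19.3 FPKM) overlapped, and Plxna3 and Plxnb3 were not tested, with at most 1.35 FPKM.

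The Slit ligands gave no change past the test. Slit3 was the more abundant, at 45.3, 75.8, 82.0 and 75.4 FPKM in WT and 30.3, 61.0, 43.6 and 75.7 FPKM in LRP1 KO. Its libraries varied widely within both groups, and the log2 fold change of -0.44 had an SE of 0.28 (limma adjusted p = 0.290). Slit2 was 5.43, 8.10, 9.83 and 8.68 FPKM in WT and 8.83, 10.1, 11.5 and 10.1 FPKM in LRP1 KO, a log2 fold change of 0.33 (SE 0.15, limma adjusted p = 0.162). Slit1 did not exceed 0.0727 FPKM.

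Of the Robo receptors only Robo4, the endothelial one, was tested. It was 1.22, 1.002, 1.59 and 1.119 FPKM in WT and 5.77, 2.24, 3.41 and 0.747 FPKM in LRP1 KO. LRP1 KO libraries 1 to 3 were above every WT library and library 4 was below every one. The log2 fold change was 0.70 (SE 0.34, limma adjusted p = 0.183), and without library 4 it was 1.05 (limma adjusted p = 0.0103). Robo3, its neighbour on chromosome 9 in the opposite direction, was 0.407, 0.387, 0.240 and 0.407 FPKM in WT and 1.27, 0.608, 1.19 and 0.360 FPKM in LRP1 KO. The gene ends lie 553 bases apart, and with counting by strand not stated, reads running past one end could be assigned to the other gene. Robo1, the widely expressed Slit receptor, was 0.573, 0.721, 0.945 and 0.865 FPKM in WT and 0.896, 0.771, 0.940 and 0.796 FPKM in LRP1 KO, groups that overlapped. Robo2 stayed at or under 0.222 FPKM.

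Among netrins and their receptors, Unc5b rose. Unc5b encodes the netrin receptor of endothelial tip cells, and it was 36.5, 31.2, 30.8 and 36.3 FPKM in WT and 50.2, 44.3, 46.3 and 38.4 FPKM in LRP1 KO. Each LRP1 KO library was above each WT library, with means of 44.8 ± 4.92 and 33.7 ± 3.12 FPKM (SD, n = 4 each). The log2 fold change was 0.40 (SE 0.09, limma adjusted p = 0.0261). Unc5a did not differ past the test, at 1.46 to 1.76 FPKM in WT and 1.41 to 1.93 FPKM in LRP1 KO (log2 fold change 0.01), and it overlaps Hk3 on the opposite strand. Unc5c and Unc5d did not exceed 0.298 FPKM.

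The netrin ligands had 3 tested members and none passed. Ntn4, a netrin of basement membranes, was 5.47, 5.90, 7.77 and 7.54 FPKM in WT and 10.1, 10.95, 12.0 and 6.66 FPKM in LRP1 KO. LRP1 KO library 4 was within the WT range and the others were above it, with a log2 fold change of 0.50 (SE 0.17, limma adjusted p = 0.0778) and of 0.66 without library 4 (limma adjusted p = 0.00613). Ntn1, the classical netrin, was 3.10, 2.93, 3.04 and 3.38 FPKM in WT and 1.94, 2.58, 3.01 and 2.92 FPKM in LRP1 KO (log2 fold change -0.19, SE 0.11, limma adjusted p = 0.222). Ntn3 was 1.29 to 1.80 FPKM in WT and 0.905 to 1.58 FPKM in LRP1 KO, and Ntn5 was near 0.

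Several of these genes ordered the LRP1 KO libraries in the same way as the endothelial marker Cdh5 and the summed mural markers. Cdh5 was 8.98, 9.31, 11.2 and 8.87 FPKM in WT and 47.3, 21.5, 33.9 and 8.56 FPKM in LRP1 KO, that is, highest in library 1, then 3, 2 and 4. The same order was found in 7 of the 42 tested guidance genes (16.7%), namely Epha2, Epha4, Plxnd1, Robo4, Sema3a, Sema3e and Unc5b. It was found in 983 of all 11389 tested genes (8.63%) and in 13 of the 17 tested endothelial markers, Cdh5 itself included. The mural sums had it as well, at 1627, 1372, 1548 and 1040 FPKM by LRP1 KO library number, and so did 3 of 8 tested mural markers. Among guidance genes below the limit, Robo3, Sema3g and Sema7a had it. The reverse order was found in another 7 guidance genes, Efna2, Ephb2, Ephb3, Ephb6, Plxnb1, Sema3b and Slit3, in 8.67% of all tested genes and in 0 of the 17 endothelial markers. Sema3a and Unc5b, the genes past the test that rose, thus followed the order of Cdh5, and Efna1 and Efna4 followed neither order. The fibroblast sums had the reverse order, at 2139, 2844, 2597 and 3349 FPKM by LRP1 KO library number, as did 9 of the 12 fibroblast markers. These are orders of 4 libraries, and the part of these cell types in them was not tested.

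**Figure D4:**
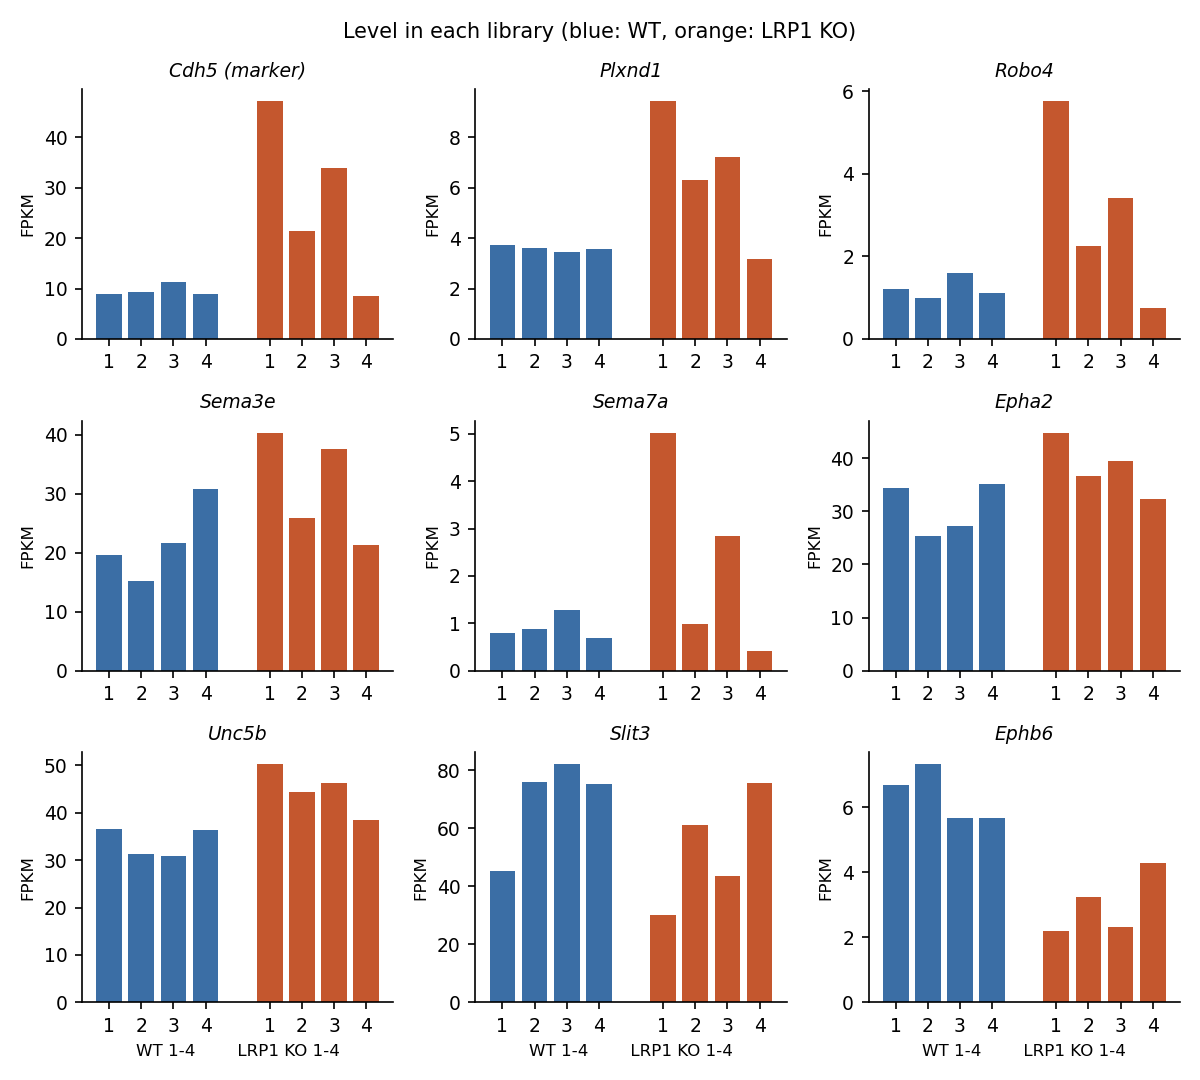
Level (FPKM, linear axes from 0) of the endothelial marker Cdh5 and 8 guidance genes in the 4 WT (blue) and 4 LRP1 KO (orange) libraries, 1 bar per library. Plxnd1, Robo4, Sema3e, Sema7a, Epha2 and Unc5b rank the LRP1 KO libraries as Cdh5 does (1, 3, 2, 4), and Slit3 and Ephb6 rank them in reverse.

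Genes that work with these ligands and receptors were examined from a list of 70 names, which found 72 entries, 56 of them tested. Of these 8 passed (14.3%, against 13.6% of all tested genes), 3 higher and 5 lower, with a median log2 fold change of 0.03. Among 9 tested coreceptors 2 fell, Neo1 and Flrt2. Neo1 encodes neogenin, a DCC-type receptor of netrins and repulsive guidance molecules, and it was 26.0, 28.4, 31.3 and 27.4 FPKM in WT and 22.6, 21.01, 22.9 and 24.5 FPKM in LRP1 KO. It fell by 0.30 (SE 0.07, limma adjusted p = 0.0279). Rgma, which encodes a neogenin ligand, fell by 0.55 (SE 0.14, limma adjusted p = 0.0328), from 4.43 to 5.81 FPKM in WT to 2.41 to 4.37 FPKM in LRP1 KO. Flrt2, which encodes a ligand of Unc5 receptors, was 48.9, 71.5, 80.7 and 61.7 FPKM in WT and 29.3, 28.9, 32.9 and 49.1 FPKM in LRP1 KO. Only LRP1 KO library 4 and WT library 1 overlapped, and Flrt2 fell by 0.90 (SE 0.19, limma adjusted p = 0.0199).

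The neuropilins, coreceptors of class 3 semaphorins, gave no difference past the test. Nrp1 was 9.84, 13.5, 17.4 and 16.5 FPKM in WT and 11.1, 15.3, 12.9 and 16.2 FPKM in LRP1 KO (log2 fold change -0.03, SE 0.17, limma adjusted p = 0.931). Nrp2 was 8.71, 8.27, 11.3 and 13.9 FPKM in WT and 13.1, 9.49, 11.7 and 8.18 FPKM in LRP1 KO (log2 fold change 0.02, SE 0.18, limma adjusted p = 0.955). Both spread as widely within a group as between groups.

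Of 44 tested cytoplasmic effectors, 3 rose and 2 fell, together 11.4% against 13.6% of all tested genes. Those that rose were Ablim3, an actin-binding protein (log2 fold change 0.82, limma adjusted p = 0.0462), Fyn, a Src-family kinase (0.46, limma adjusted p = 0.0260), and Ptk2, which encodes focal adhesion kinase (0.34, limma adjusted p = 0.0283). Of the 8 partners past the test, Arhgef12 and Dpysl5 passed in all 8 fits that left out a library, Flrt2 in 4, Fyn, Ptk2 and Neo1 in 2, and Ablim3 and Rgma in 1, that without LRP1 KO library 4. With no limit on low values Ablim3, Fyn (limma adjusted p = 0.0504) and Rgma (limma adjusted p = 0.0663) were lost, and without the variance trend Ablim3. Arhgef12, whose product binds B-class plexins, was 46.9, 41.2, 51.7 and 49.1 FPKM in WT and 27.3, 31.1, 29.2 and 38.6 FPKM in LRP1 KO. It fell by 0.57 (SE 0.11, limma adjusted p = 0.0136). Dpysl5, a collapsin response mediator protein, was 14.3, 11.8, 10.3 and 12.4 FPKM in WT and 4.87, 7.31, 4.88 and 7.53 FPKM in LRP1 KO. It fell by 0.90 (SE 0.15, limma adjusted p = 0.00841), and neither gene had overlapping groups.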

How the data were processed

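Gene levels were measured by RNA sequencing in 4 WT and 4 LRP1 KO libraries, grouped by sample title. The deposited FPKM table holds 1 value per gene and library. Its unit was inferred, since the header names none, and the values were quantile normalized (equal highest value, nearly equal sums), which the authors do not describe in the sources used here. The submitters' processing notes list TopHat2, Cufflinks and mm10, whereas the study's methods describe STAR and featureCounts counts with edgeR. As the values are not counts, limma 3.58.1 (R 4.3.3) replaced the count test: log2(FPKM + 1), genes with at least 1 FPKM in at least 4 libraries, group as the only term, a mean-variance trend and Benjamini-Hochberg adjustment over all 11389 tested genes. The test was checked on simulated data with independent noise for each gene and library. These data held no shift shared by many genes of a library, as LRP1 KO library 4 showed, so the check does not cover that case. Depth is unknown, so no counting error could be computed. For single values, group labels were permuted exactly (two-sided, 70 splits of 8 libraries into 4 and 4, smallest possible p = 0.0286). Positions are from GENCODE M21 (GRCm38), which matched 65 of 67 entries, and not ENSMUSG00000090425 or Ntn3. The members, lists of partners and markers, and the tests were chosen with earlier results of these data known. Named genes are those past the test, a hand-written list of endothelial and leukocyte members, and for partners also Nrp1, Nrp2 and Neo1. Other members were named by role with ranges.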

Additional observations from a re-analysis of the deposited data

Results flagged for a closer look

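In 116 groups of 4 libraries, 5 held a library far from the other 3 (gap to the nearest over the range of the group above the 95% limit of Dixon's test), and chance gives about 1 in 20. In LRP1 KO, library 4 was the library apart in 3 genes. Plxnb1 was 4.09 FPKM there, against 2.66 to 2.79 FPKM in the others. Ntn3 was 1.58 FPKM, against 0.905 to 1.01 FPKM. Ablim3 was 3.15 FPKM, against 6.86 to 7.60 FPKM. In each of these genes library 4 lay on the WT side of its group. In WT, library 3 was apart in Efna5, at 26.5 FPKM against 20.7 to 21.1 FPKM, and in Sema3f, at 60.3 FPKM against 63.4 to 63.9 FPKM.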

How the results depend on the processing

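The 13 guidance genes past the test (limma, 2 higher and 11 lower) became 13 with a pseudocount of 0.1, 14 with a limit of 0.5 FPKM, 13 after rescaling libraries, 13 without a variance trend and 10 with no limit on low values (7 lower), 9 of them shared. The gene gained at 0.5 FPKM was Sema4d, which met that limit only through the LRP1 KO group. Library weights gave 19 (6 higher), and a limit of 2-fold 0. Leaving out 1 library gave 2 to 22 (0 to 7 higher, 2 to 15 lower). The 8 partner genes (3 higher, 5 lower) became 16 with library weights (7 higher, 9 lower), had 1 higher with no limit on low values, and were 2 to 19 on leaving out 1 library (0 to 10 higher, 2 to 9 lower). With replicate number as a block, 11 guidance genes passed, 9 shared with the 13, and 5 partners (1 higher). Efna2, Efna5, Plxnb1, Sema5a, Ablim3, Fyn and Neo1 were lost there, and Epha3 and Sema3d were gained. The numbers were not taken to pair libraries: same-numbered libraries deviated with r = 0.158, 0.141, 0.340 and -0.312, and not every library correlated best with its own number.

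Efna1 and Ephb6 passed in every fit listed here except under the 2-fold limit. Over 36 single genes, 404 values under alternatives stayed on their side of the threshold, 109 lost and 7 gained it, and 20 changed sign, all in genes with main estimates between -0.04 and 0.02. With library weights Ephb4 became 0.0011, Plxna2 -0.011 and Nrp2 -0.022. Leaving out 1 library moved Ephb4 over -0.078 to 0.029 (above 0 without WT 2), Plxna2 over -0.068 to 0.10 (below 0 without WT 1 at -0.0057, WT 2 at -0.048 and LRP1 KO 1) and Sema3c over -0.12 to 0.14 (below 0 without WT 1 at -0.11, WT 4 at -0.044 and LRP1 KO 3). It moved Sema4a over -0.096 to 0.056 (above 0 without WT 1 at 0.017 and LRP1 KO 2), Nrp2 over -0.083 to 0.15 (below 0 without WT 1 at -0.056, WT 2 at -0.078, LRP1 KO 1 and LRP1 KO 3 at -0.031) and Nrp1 over -0.18 to 0.072 (above 0 without WT 3, WT 4 at 0.047, LRP1 KO 1 at 0.068 and LRP1 KO 3 at 0.0021). The cause of these moves was not tested beyond the fewer libraries. Depth being unknown, low values such as those under 0.1 FPKM carry an error that could not be computed.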
